A study of Homo sapiens with 22 samples.

Results

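The untreated baseline of MDA-MB-231 comprised the 2 RNA-seq samples given vehicle, of 10 RNA-seq samples and 22 samples in the whole series, and was described over all 20668 gene symbols that each file lists. The samples were chosen by their labels, which put both in the vehicle group, and no treated sample was compared with them. MDA-MB-231 is a human breast adenocarcinoma cell line of the triple-negative (TNBC) type, which by definition lacks oestrogen receptor, progesterone receptor and HER2 amplification. Cells had been kept for 3 days without phenol red, a weak oestrogen, in 5% serum that charcoal had depleted of steroid hormones, before vehicle was added, and the other 8 samples shared this step. Those 8 samples, duplicates given 100 nM Dexamethasone or 10 μM Compound A for 2 h or 4 h, were used only to show how far duplicates of other groups lay apart. Both vehicle samples came from 1 cell line in culture, so they describe this line under these conditions and not TNBC at large.

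No time point is given in the labels of the vehicle samples, whereas the column headers of their files carried 2h for replicate 1 and 4h for replicate 2. Replicate and time can therefore not be told apart in any difference between them. With 1 library on each side, the difference between them was described by its size and not tested, and each value below is given for both replicates in the order replicate 1, replicate 2. Levels are RPKM, the reads on a gene scaled to its transcript length and to the mapped reads of the sample, so levels can be compared between genes per length. A gene was called expressed at 1 RPKM or more in both samples and barely read at under 0.1 RPKM in both. The RPKM values summed to 308524 and 307134, and 17821 and 17824 symbols lay above 0. Read totals were not in the files, but the steps in the values of rarely read genes put the depth of replicate 2 at 1.013 times that of replicate 1. Only rarely read genes with near-equal values in both samples were used for this, and 496 of these 835 lay at this ratio.

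Breast cancer cell lines fall along an axis from luminal, with epithelial junctions, keratins and hormone receptors, to mesenchymal, with an intermediate filament network of vimentin, matrix proteins and little E-cadherin. The move from the epithelial to the mesenchymal state (EMT) is driven by transcription factors of the SNAI and ZEB families, which repress epithelial genes. Cells without hormone receptors still respond to other inputs, among them receptor tyrosine kinases at the cell surface and the glucocorticoid receptor, a nuclear receptor that moves to DNA when it binds cortisol or a synthetic glucocorticoid.

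Of the 7 genes that mark the line, those for vimentin, CD44 and the EGF receptor were well expressed and those for both female sex hormone receptors were barely read. VIM, which encodes the filament protein vimentin, stood at 1439 and 1464 RPKM (mean 1451 ± 17.8, SD, n = 2). CD44, the hyaluronan receptor, stood at 159 and 182 RPKM, and EGFR at 32.2 and 35.8 RPKM. VIM ranked 5th by mean level among all symbols, CD44 in the top 1.12% and EGFR in the top 9.78%. ESR1, the gene of oestrogen receptor alpha, was listed at 0 in both samples. PGR, the gene of the progesterone receptor, was listed at 0.0015 and 0 RPKM, and CDH1, which encodes E-cadherin, at 0.369 and 0.38 RPKM. ERBB2, which encodes HER2, stood at 18.6 and 17.7 RPKM, in the top 18.2% of symbols. This level was higher than the low level by which the marker set describes the line, while the other 6 genes had the levels it names. An RPKM value carries no information on gene copy number or on protein. In the GRCh37 annotation (GENCODE v44 lifted), which gives these as protein-coding genes, VIM lies at chr10:17270240-17279592, CD44 at chr11:35160429-35253949, EGFR at chr7:55086710-55279321 and ERBB2 at chr17:37844167-37886679. The genes of low level lie at chr6:151977826-152450754 (ESR1), chr11:100900355-101000544 (PGR) and chr16:68771195-68869440 (CDH1).

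Markers of other cell types were nearly absent. Of 16 listed hematopoietic and endothelial markers, 2 were expressed and 10 were barely read, with summed levels of 37.6 and 36.97 RPKM. CD68, a lysosomal protein that many cultured lines also make, gave most of that sum at 33.0 and 32.7 RPKM. The other expressed marker was CD14, at 2.83 and 2.54 RPKM. CD3E, the T cell receptor chain, was listed at 0 in both samples. Of 21 listed markers of other tissues, 1 was expressed, the matrix proteoglycan gene LUM (2.88 and 2.89 RPKM), and 15 were barely read. Their summed levels were 5.08 and 4.62 RPKM. Not among the symbols analysed, and so in no count, were 6 of the 22 hematopoietic and endothelial markers chosen and 7 of the 28 of other tissues. In bulk RNA, fewer cells of a type and less RNA per cell cannot be told apart.

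Across all listed symbols, 11297 (54.7%) were expressed, 5887 (28.5%) were barely read and 3484 lay between. No listed symbol was at 0 in all 10 RNA-seq samples, so every symbol had been read in some sample, treated samples included. The shares of all symbols given here and beside the gene lists are therefore shares of such symbols, not of all genes in the genome. At 10 RPKM or more in both samples were 5651 symbols, at 100 RPKM or more 490, and 2071 were listed at 0 in both. RefSeq matched 19899 of the symbols. Of 16667 matched protein-coding genes 10696 were expressed, and together they held 98.1% ± 0.04 of the summed RPKM (SD, n = 2). Expression was rarer among other classes, with 249 of 1836 long noncoding RNAs, 162 of 660 transcribed pseudogenes, 43 of 214 snoRNA symbols and 19 of 452 miRNA symbols expressed. A snoRNA or miRNA symbol is so short that a few reads give it a high RPKM.

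The most abundant messages encoded small calcium-binding proteins, the actin cytoskeleton, iron storage, glycolysis and protein folding. S100A6, which encodes a small calcium-binding protein of the S100 family, led with 5220 and 4813 RPKM (mean 5017 ± 288, SD, n = 2). The actin genes ACTB, at 2945 and 2994 RPKM, and ACTG1, at 2083 and 2122 RPKM, followed. Their coding sequences are nearly identical, so the split of reads between ACTB and ACTG1 is uncertain. TMSB10, whose product binds actin monomers, stood at 2042 and 1993 RPKM. VIM, FTL (the ferritin light chain), S100A4, LGALS1 (galectin 1), ENO1 (enolase) and CTSD (the lysosomal protease cathepsin D) made up the rest of the top 10, with means from 1451 RPKM in VIM down to 1093 RPKM in CTSD. The next 10 were the actin-severing protein gene CFL1, the ribosome-bound scaffold gene GNB2L1 (now RACK1), GAPDH and PKM of glycolysis, the chaperone gene HSPA8, S100A11, CALR (calreticulin), B2M (the light chain of MHC class I), the secreted matrix protein gene CYR61 (now CCN1) and TMSB4X, with means from 1074 to 677 RPKM.

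The 10 most abundant genes held 6.35% ± 0.0872 of the summed RPKM, the 100 most abundant 20.05% ± 0.209 and the 1000 most abundant 53.4% ± 0.128 (SD, n = 2). Both samples shared 9 of their 10, 18 of their 20 and 94 of their 100 most abundant genes. Of the top 20, 18 differed between the replicates by less than in at least 1 treated duplicate pair. HSPA8, at 705 and 845 RPKM, and CYR61, at 884 and 489 RPKM, were the exceptions, with replicate 2 higher in HSPA8 and replicate 1 higher in CYR61. Of 12550 genes compared in this way, 13.5% had a gap wider than in each treated pair with replicate 1 the higher, and 13.1% with replicate 2 the higher. Genes of ribosomal proteins, 82 in number, held 5.40% ± 0.0342 of the summed RPKM. They made up 23 of the 100 most abundant genes, 76 of the 82 were expressed, and their median level was 145 RPKM. Many of them have processed pseudogenes of near-identical sequence, so their reads may be shared with other symbols.

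**Figure D1:**
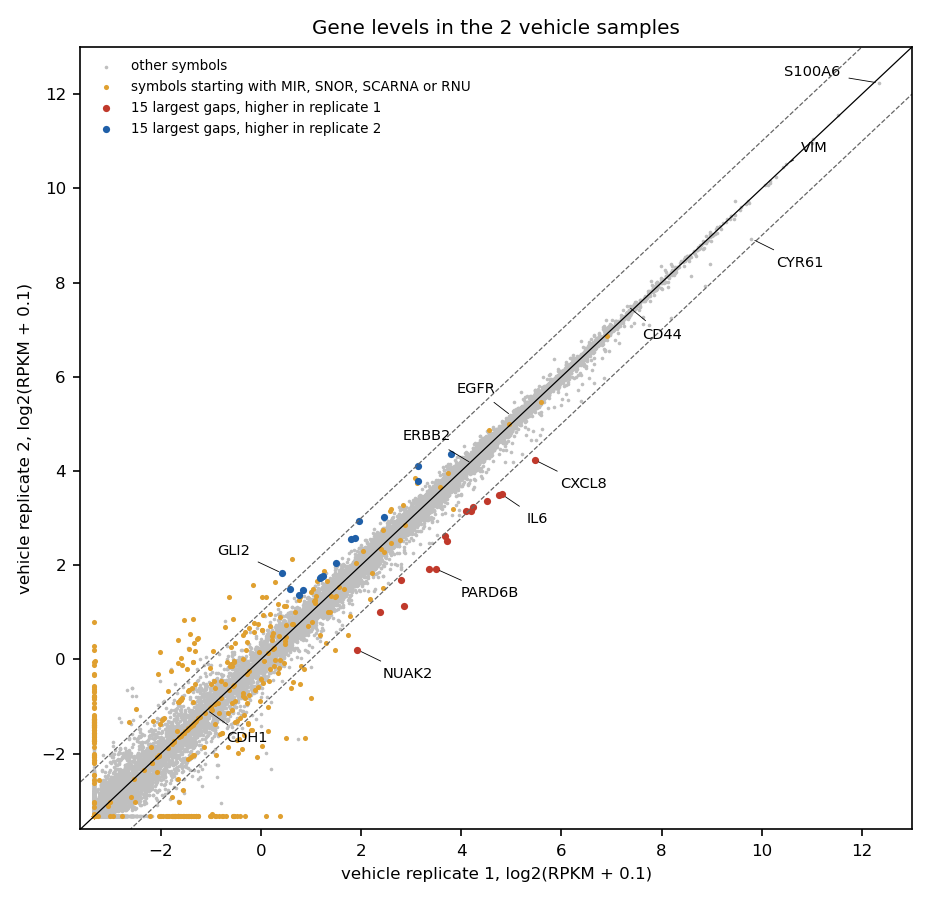
Levels of all listed symbols in vehicle replicate 1 (horizontal axis) and replicate 2 (vertical axis), both as log2(RPKM + 0.1), with 1 point per symbol, the solid line at equality and the dashed lines at a 2-fold gap. Most points hug the solid line, points past the dashed lines are mainly low or short RNA symbols (orange), and the red points, higher in replicate 1, lie farther off the line than the blue points, higher in replicate 2.

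Mesenchymal genes were mostly expressed. Of 32 listed genes 27 were expressed (84.4%, against 54.7% of all symbols) and 3 were barely read, with a median of 41.7 RPKM against 1.91 RPKM over all symbols. S100A4, a calcium-binding protein gene of motile cells, stood at 1253 and 1210 RPKM. CAV1, the gene of caveolin 1, stood at 309 and 301 RPKM. These high members lay within a narrow range between the replicates. The collagens were uneven: COL3A1 was barely read at 0.0142 and 0.0175 RPKM, as were DCN, the gene of the matrix proteoglycan decorin, at 0.00778 and 0.00767 RPKM and MMP2, the gene of a gelatinase, at 0.0568 and 0.0653 RPKM. CDH2, which encodes N-cadherin, was not expressed by the rule used here, at 0.21 and 0.361 RPKM. It was chosen for mention after its values were seen. The mesenchymal list as a whole summed to 5596 RPKM in both samples.

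Among the transcription factors that drive EMT, 4 of 8 listed genes were expressed. FOSL1, which encodes the AP-1 subunit FRA1, was by far the most abundant, at 385 and 280 RPKM. SNAI2, which encodes the E-cadherin repressor SLUG, stood at 42.2 and 35.9 RPKM, and ZEB1, the gene of another such repressor, at 11.7 and 11.8 RPKM. ZEB1 was nearly equal in the replicates, and FOSL1 and SNAI2 were higher in replicate 1 by more than in any treated duplicate pair. ZEB2 was low at 1.40 and 1.31 RPKM, and FOXC2 (0.0116 and 0 RPKM) and TCF4 (0.027 and 0.0249 RPKM) were barely read.

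Epithelial genes were split rather than silent. Of 32 listed genes 17 were expressed (53.1%) and 5 barely read, with a median of 1.70 RPKM, close to that over all symbols. The highest were SPINT2, a gene of a membrane-bound serine protease inhibitor (215 and 209 RPKM), CTNNB1, the gene of beta-catenin (125 and 122 RPKM), CLDN4, a gene of a tight junction claudin (54.9 and 52.0 RPKM), and CTNND1, the gene of p120-catenin (30.2 and 27.3 RPKM). CTNNB1 and CTNND1 encode proteins that cells without E-cadherin also use. At the other end stood transcription factors that maintain the epithelial state. GRHL2 was listed at 0 in both samples, OVOL2 at 0.0105 and 0 RPKM, and OVOL1 at 0.00646 and 0.00637 RPKM. RAB25, an epithelial regulator of vesicle traffic, was barely read at 0.036 and 0.0177 RPKM.

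Luminal and basal genes were each expressed in part. Of 22 luminal genes 10 were expressed and 6 barely read (median 0.643 RPKM), and of 24 basal genes 13 were expressed and 6 barely read (median 1.68 RPKM). The shares expressed, 45.5% and 54.2%, stand beside 54.7% of all symbols. The simple keratins were high, with KRT19 at 351 and 329 RPKM, KRT8 at 271 and 259 RPKM and KRT18 at 219 and 196 RPKM. AGR2, which encodes a protein disulphide isomerase, stood at 72.3 and 68.5 RPKM. At the bottom of the same list as these keratins of simple epithelium, ESR1 and the T-box factor gene TBX3 were listed at 0 in both samples. In the basal list the highest genes were SFN, the gene of 14-3-3 sigma (166 and 167 RPKM), LAMB3, a laminin chain gene (130 and 131 RPKM), ITGA6, an integrin gene (88.2 and 85.9 RPKM), and S100A2 (90.8 and 82.7 RPKM). The stratified keratins were not, with KRT6B listed at 0 in both samples and KRT5 at 0.00847 and 0 RPKM. KRT6A and KRT6B are near-identical copies whose reads could be split.

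Of 11 listed stem cell markers 6 were expressed and 5 barely read. Beside CD44 and ITGA6, PROCR, the gene of the endothelial protein C receptor (12.7 and 13.3 RPKM), and BMI1, a polycomb gene (10.6 and 13.6 RPKM), were expressed, whereas ALDH1A1, an aldehyde dehydrogenase gene, was listed at 0 in both samples and PROM1, the gene of CD133, at 0.00453 and 0 RPKM.

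**Figure D2:**
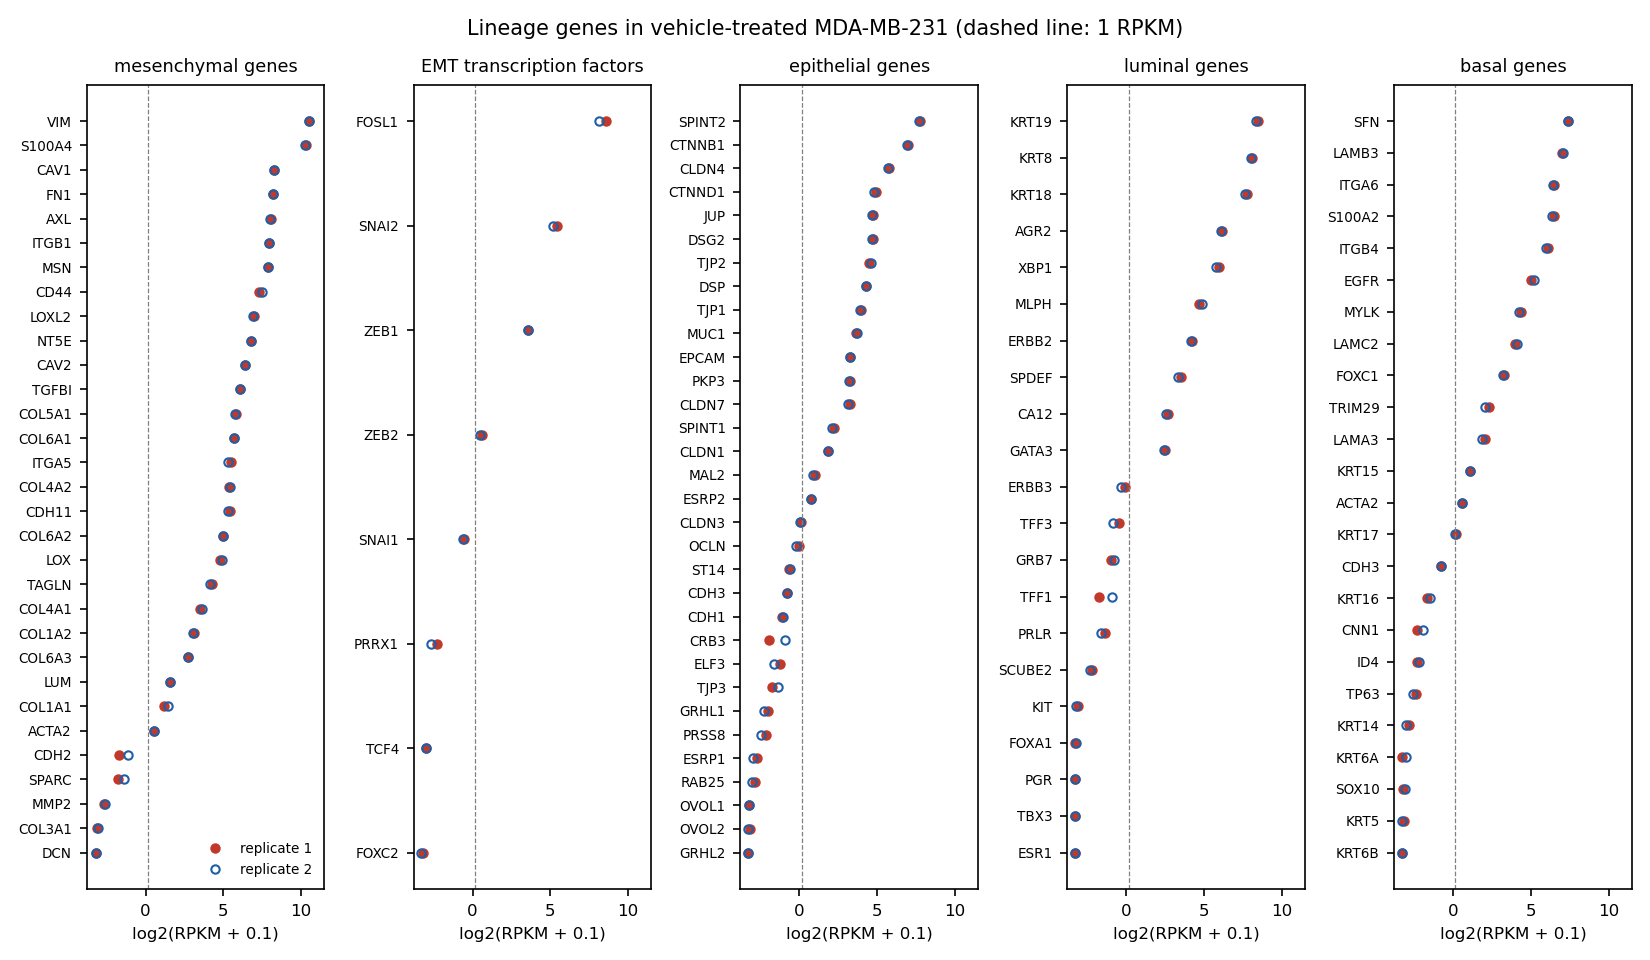
Level of the genes of 5 lineage lists in vehicle replicate 1 (filled red) and replicate 2 (open blue), as log2(RPKM + 0.1), ordered by mean, with the dashed line at 1 RPKM. Most mesenchymal genes lie right of the line, the epithelial, luminal and basal lists span both sides of it, and the replicates overlie each other for most genes.

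Nuclear receptors, transcription factors that bind steroids, retinoids, lipids and other small ligands, were expressed for 23 of 46 listed genes (50.0%), and 19 were barely read. Those with a mean of 10 RPKM or more were NR1H2, PPARD, PPARG and RXRA of the lipid-sensing branch, the orphan receptors NR2F2, NR2F6 and ESRRA, the clock repressor NR1D2 and the glucocorticoid receptor NR3C1. NR1H2, the gene of liver X receptor beta, was the highest at 46.6 and 45.0 RPKM, followed by NR2F2 at 38.0 and 38.9 RPKM and NR2F6 at 30.6 and 29.1 RPKM. PPARD stood at 23.7 and 22.5 RPKM and ESRRA at 20.5 and 21.98 RPKM. PPARG (12.5 and 12.9 RPKM), NR1D2 (12.2 and 10.5 RPKM) and RXRA, the shared partner of many receptors (10.9 and 10.7 RPKM), closed the group.

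NR3C1, the target of the ligands in this study, stood at 22.9 and 20.4 RPKM (mean 21.6 ± 1.81, SD, n = 2), in the top 15.6% of all symbols. The gene lies at chr5:142657496-142815077 on the minus strand of GRCh37. In the order of nuclear receptors it came 5th, and its neighbours PPARD and ESRRA each overlapped its range between the replicates, so NR3C1 was not separated from either at n = 2, whereas PPARD and ESRRA did not overlap each other. NR1D2 and RXRA overlapped as well, and no other neighbours among the receptors at 10 RPKM or more did. The receptors of oestrogen and progesterone were far lower, as given above for ESR1 and PGR.

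Genes that glucocorticoids are known to induce were expressed in part before any ligand was given: of 14 listed genes 11 were expressed and 1, ZBTB16, was listed at 0 in both samples. MT2A, a metallothionein gene, stood at 545.5 and 564 RPKM, ANXA1, the gene of annexin A1, at 386 and 374 RPKM, and ERRFI1, which encodes an inhibitor of the EGF receptor, at 198 and 138 RPKM. MT2A and ANXA1 were close in both samples, and ERRFI1 was higher in replicate 1.

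Receptor tyrosine kinases, the surface receptors of most growth factors, were expressed for 23 of 58 genes (39.7%, below the 54.7% of all symbols), and 24 were barely read. AXL, the receptor of the ligand GAS6, was the most abundant at 264 and 255 RPKM. EPHA2, an ephrin receptor gene, stood at 168 and 134 RPKM, and MET, the gene of the hepatocyte growth factor receptor, at 36.6 and 32.9 RPKM. EPHA2 was higher in replicate 1 by more than in any treated duplicate pair, whereas AXL and MET showed no such difference. The others with a mean of 10 RPKM or more were EGFR, FGFR1 (30.8 and 33.4 RPKM), EPHB4 (22.6 and 19.4 RPKM), PTK7 (20.5 and 19.9 RPKM), ERBB2, EPHB2 (16.2 and 16.0 RPKM), ROR1 (14.96 and 16.9 RPKM) and RYK (14.5 and 13.6 RPKM). MET, EGFR and FGFR1 overlapped in their ranges, as did EPHB4 with PTK7 and EPHB2 with ROR1, and the other neighbours in this order did not. FLT3, FLT4 and INSRR were listed at 0 in both samples.

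The matching ligands were measured too. Of 33 listed growth factor genes 19 were expressed and 6 barely read. GAS6, the ligand of AXL, was the highest at 235 and 236 RPKM, so AXL and GAS6 stood at like levels. HGF, the ligand of MET, was listed at 0 in both samples. BMP4 (116 and 136 RPKM), VEGFA (124 and 93.3 RPKM), whose product acts on endothelial cells, and CSF1 (79.85 and 72.2 RPKM), the macrophage growth factor, were next. IGF1 (0.0025 and 0 RPKM) and FGF2 (0.00623 and 0.0031 RPKM) were barely read.

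Receptors for cytokines and for the TGF-beta family were more widely expressed than the tyrosine kinases, at 24 of 28 listed genes (85.7%). IFNGR2, a chain of the interferon gamma receptor, stood at 70.7 and 67.9 RPKM. TGFBR2, which binds TGF-beta, stood at 54.7 and 56.0 RPKM, TNFRSF1A, the main receptor of tumour necrosis factor, at 49.9 and 47.3 RPKM, and OSMR, the oncostatin M receptor, at 47.3 and 42.4 RPKM. Barely read were GHR, CCR7 and IL6R, the last at 0.0862 and 0.0704 RPKM, although the ligand gene IL6 was expressed, as given below with the differences between the replicates.

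**Figure D3:**
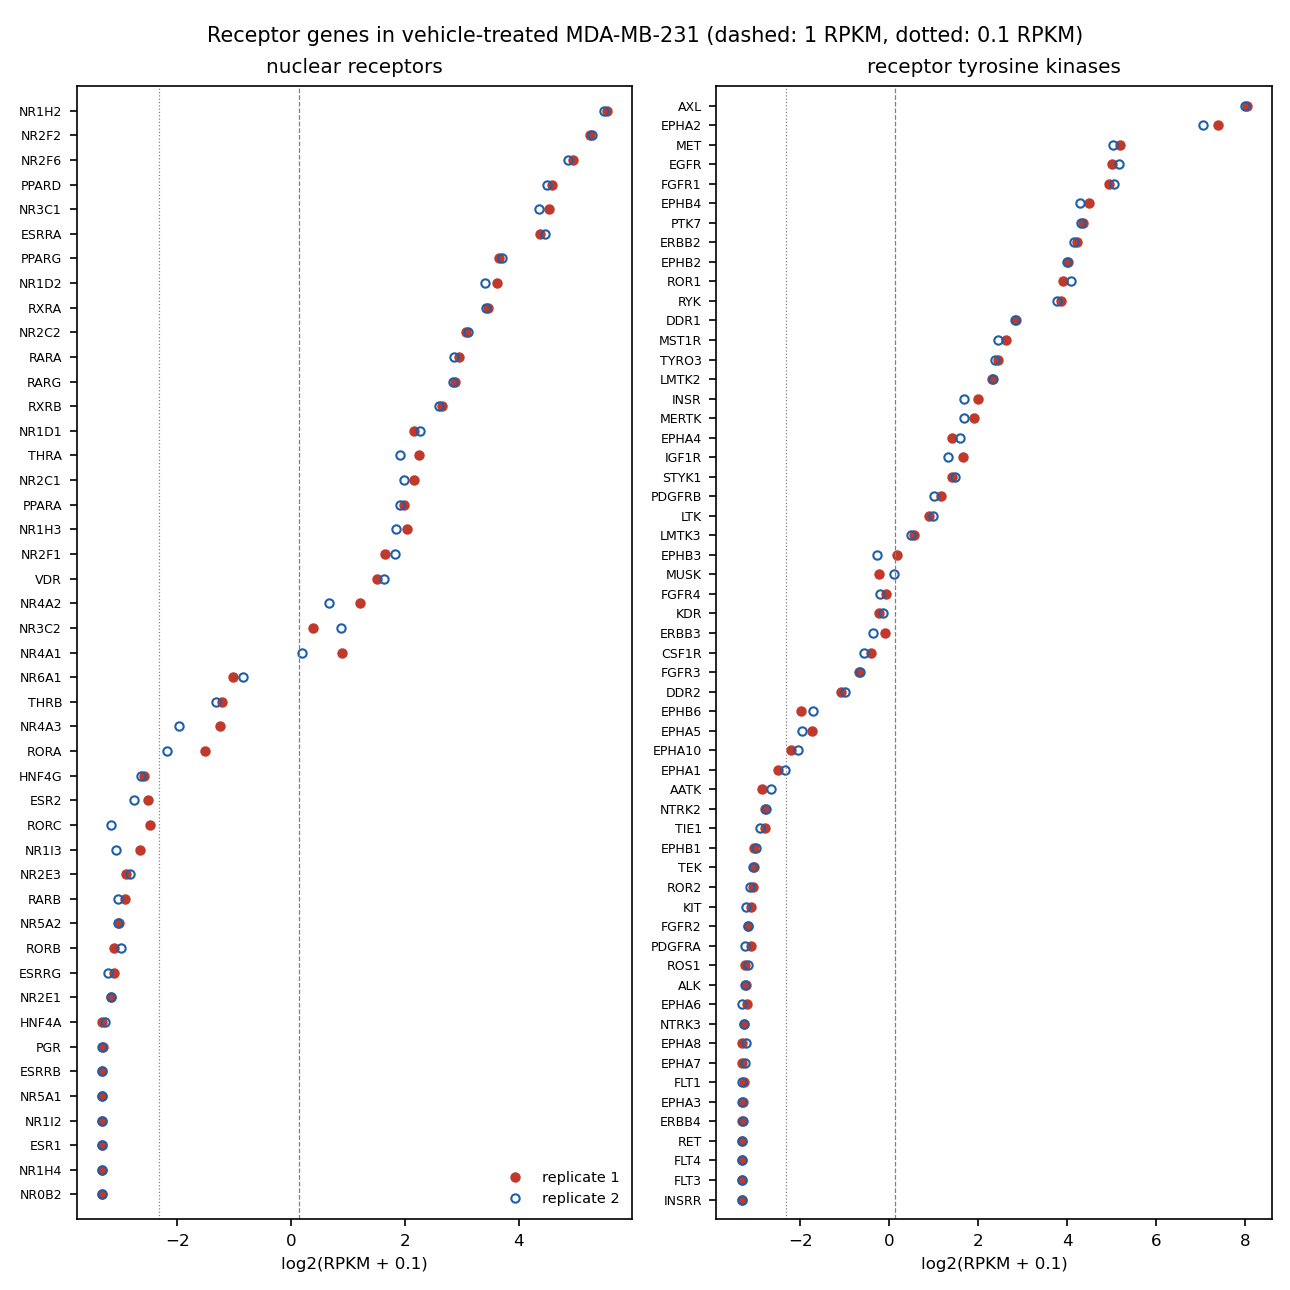
Levels of nuclear receptors and receptor tyrosine kinases in vehicle replicate 1 (filled red) and replicate 2 (open blue), as log2(RPKM + 0.1), ordered by mean, with dashed lines at 1 RPKM and dotted lines at 0.1 RPKM. NR3C1 is 5th among the nuclear receptors, ESR1 and PGR sit at the bottom, and AXL and EPHA2 stand apart from the other kinases.

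Tumour suppressor genes were mostly expressed. Of 72 listed genes 53 were expressed (73.6%), with a median of 4.42 RPKM, and 10 were barely read (13.9%, against 28.5% of all symbols). A further 4 of the 76 genes chosen were not among the symbols analysed and are in neither count. Because no listed symbol was at 0 in all 10 RNA-seq samples, a gene read in no sample could be among these 4. The share barely read may therefore leave out unread genes. The highest were genes of secreted or enzymatic products: THBS1, the gene of thrombospondin 1, at 552 and 527 RPKM, DKK1, the gene of a Wnt inhibitor, at 473 and 456.5 RPKM, and GSTP1, a glutathione transferase gene, at 218 and 219 RPKM. NDRG1, which many cells induce in hypoxia, stood at 142 and 105 RPKM. THBS1, DKK1 and GSTP1 lay close together between the replicates, and NDRG1 was higher in replicate 1.

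The 10 barely read members comprised a kinase, secreted Wnt antagonists, a DNA repair enzyme, adhesion proteins, transcription factors and a serpin. SYK, a kinase known from immune receptor signalling, was listed at 0 in both samples. SFRP4 (0 and 0.00648 RPKM) and SFRP5 (0.0104 and 0.0409 RPKM) encode Wnt antagonists, and MGMT (0.0154 and 0.0152 RPKM) encodes the enzyme that removes alkyl groups from guanine. CDH13 (0.00901 and 0.0178 RPKM) and CADM1 (0.04 and 0.0526 RPKM) encode adhesion proteins. RUNX3 (0.00819 and 0.00404 RPKM), RARB, the retinoic acid receptor beta (0.033 and 0.0217 RPKM), and TP63 (0.0867 and 0.0679 RPKM) encode transcription factors, and SERPINB5 (0.0741 and 0.0146 RPKM) encodes maspin. At these levels a value stands for very few reads, so the order among these 10 genes was not resolved. A barely read gene was not detectable beyond this level at the depth of these libraries, which does not show that the gene is silent. Over the threshold of 0.1 RPKM, the nearest tumour suppressor was NDRG2, with a mean of 0.109 RPKM.

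Genes that are silenced in tumours often have promoters rich in CpG dinucleotides, where methylation can act. DNA methylation was not measured here, but the promoter sequences in RefSeq (GRCh38.p14, from 250 bases before to 50 after each gene start, 300 in all) allow the CpG number to be counted for 14788 of the listed symbols, taking the most CpG-rich promoter of each gene. Expressed genes had a median of 29 CpG (9124 genes), genes between the thresholds 22 (2115 genes) and barely read genes 10 (3549 genes). At least 20 CpG were present in 81.6%, 54.1% and 33.1% of them. Of the 8 barely read tumour suppressors with a promoter in the table, 6 had at least 20 CpG, with a median of 30.5, against 34 of 40 expressed tumour suppressors with a median of 29.5. The barely read tumour suppressors thus had CpG numbers like those of the expressed ones. The promoters of MGMT (chr10:129466991-129467290, plus strand, 45 CpG) and SYK (chr9:90801569-90801868, plus strand, 40 CpG) are shown because they are the most CpG-dense of the 8, each as its most CpG-rich promoter in the table, from 5′ to 3′ with CpG in capitals.
MGMT: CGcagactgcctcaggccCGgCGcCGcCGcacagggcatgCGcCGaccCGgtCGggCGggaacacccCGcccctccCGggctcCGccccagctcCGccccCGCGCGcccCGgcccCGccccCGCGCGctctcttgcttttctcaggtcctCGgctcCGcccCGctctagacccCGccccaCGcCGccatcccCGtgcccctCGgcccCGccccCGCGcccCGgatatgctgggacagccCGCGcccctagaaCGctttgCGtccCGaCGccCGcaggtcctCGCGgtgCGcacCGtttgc
SYK: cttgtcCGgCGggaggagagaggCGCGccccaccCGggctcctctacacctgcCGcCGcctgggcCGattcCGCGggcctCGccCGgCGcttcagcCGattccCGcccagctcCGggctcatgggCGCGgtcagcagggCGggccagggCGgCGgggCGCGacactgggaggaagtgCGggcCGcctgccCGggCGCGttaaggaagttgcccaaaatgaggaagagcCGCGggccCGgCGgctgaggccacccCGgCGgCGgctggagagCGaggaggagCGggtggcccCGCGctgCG

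Lists of dividing, glycolytic and sterol-making cells were expressed in full. All 40 listed S phase and mitosis genes passed 1 RPKM in both samples, led by TYMS, the gene of thymidylate synthase (119 and 125 RPKM), and the replication clamp gene PCNA (109 and 109 RPKM), with a list median of 36.5 RPKM. So did 25 of 25 hypoxia and glycolysis genes (median 69.5 RPKM), led by ENO1 (1155 and 1105 RPKM), and 24 of 24 cholesterol synthesis genes (median 51.4 RPKM). INSIG1, the sterol sensor that restrains the pathway, stood at 214 and 137 RPKM, and was higher in replicate 1 by more than in any treated duplicate pair.

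Of 32 interferon-stimulated genes 27 were expressed, led by IFITM3, which encodes an antiviral membrane protein, at 214 and 215 RPKM and BST2, the gene of tetherin, at 95.8 and 94.6 RPKM. Proteases and invasion genes were expressed for 21 of 28. CTSD (1116 and 1070 RPKM), the metalloprotease inhibitor gene TIMP1 (424 and 420 RPKM) and MMP14, which encodes a membrane-bound metalloprotease (253 and 272 RPKM), were high, while MMP9 (0.00835 and 0.00824 RPKM) and MMP3 (0 and 0.0211 RPKM) were barely read. Of 28 stress response genes 27 were expressed, led by the chaperone genes HSPA8, HSPA5 (438 and 433 RPKM) and HSP90B1 (439 and 422 RPKM).

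The vehicle samples were then compared with each other. The gap of a gene is its log2(RPKM + 0.1) in replicate 2 minus that in replicate 1, so a negative gap means a higher level in replicate 1. Of 12550 genes with at least 0.5 RPKM in 1 or both samples, 58 had a gap past 2-fold with the higher level in replicate 1 (0.462%) and 54 with the higher level in replicate 2 (0.43%). Of these 112 genes, 74 were short RNA symbols (starting with MIR, SNOR, SCARNA or RNU), 24 more had a mean under 2 RPKM, and 14 were other genes with a mean of 2 RPKM or more. The spread of the gaps narrowed with level, from an SD of 0.658 among genes with a mean under 1 RPKM to 0.114 among those from 20 to 100 RPKM. Over all genes kept, the SD of the gap was 0.259, inside the range of 0.194 to 0.273 in the 4 treated duplicate pairs, and Spearman's rho across genes was 0.986. Genes are not independent replicates, so that correlation describes how alike the libraries are.

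More well-read genes were past 2-fold in the vehicle pair than in any treated pair. Among genes with a mean of 2 RPKM or more, short RNA symbols left out, 13 were past 2-fold higher in replicate 1 and 1, GLI2, was past 2-fold higher in replicate 2, counted on the log2(RPKM + 0.1) scale. With a pseudocount of 1 the counts were 10 and 0. The same count over both directions was 2 and 4 in the Dexamethasone pairs (2 h, 4 h) and 1 and 0 in the Compound A pairs. Over all genes kept, 1700 had a gap wider than in each of the 4 treated pairs with the higher level in replicate 1 (13.5%) and 1639 with the higher level in replicate 2 (13.1%). These shares are the background for the counts in the gene lists.

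The 15 genes of largest gap in each direction were chosen by that gap, so their values are a description. Folds printed beside them are plain ratios of RPKM, which are slightly larger than the gap on the log2(RPKM + 0.1) scale by which genes were called. Those with the higher level in replicate 1 were led by NUAK2, a kinase gene of the AMPK family, at 3.71 and 1.05 RPKM (3.52-fold). PDGFB, which encodes a platelet-derived growth factor chain, stood at 7.19 and 2.11 RPKM (3.41-fold), and PARD6B, a cell polarity gene, at 11.2 and 3.69 RPKM (3.03-fold). Replicate 1 was the higher in each, and the log2 gaps of NUAK2, PDGFB and PARD6B in the treated pairs reached at most 0.40, 0.39 and 0.15. RPL13AP5, a ribosomal protein pseudogene, stood at 10.1 and 3.66 RPKM, but its reads can be shared with its parent gene and a treated pair differed by 3.56 on the log2 scale.

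Of the 15 genes, 6 belong to the list of genes known as targets of the transcription factor NF-kB. That list contributes 31 of the 12550 genes kept, a wider pool than the 10210 genes from which the 15 were drawn. Among these 6 were 4 cytokine genes. CXCL1 stood at 5.14 and 1.92 RPKM (2.67-fold), IL6 at 28.0 and 11.2 RPKM (2.50-fold), and CXCL8, which encodes interleukin 8, at 44.2 and 18.7 RPKM (2.36-fold). CSF2, the gene of GM-CSF, stood at 12.78 and 6.08 RPKM (2.10-fold), the NF-kB cofactor gene BCL3 at 18.7 and 9.30 RPKM (2.01-fold) and the apoptosis inhibitor gene BIRC3 at 17.1 and 8.72 RPKM (1.96-fold). All 6 were higher in replicate 1, and BCL3 and BIRC3, with log2 gaps of −0.999 and −0.959, fell short of the 2-fold call. The log2 gap of IL6 was −1.31, whereas its gaps in the treated pairs ran from −0.16 to 0.11, and for CXCL8 it was −1.24 against −0.13 to 0.26.

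The remaining genes of the 15 were NAB2, a co-repressor of the EGR factors (26.9 and 11.2 RPKM), ATF3, a stress-induced transcription factor gene (13.05 and 5.57 RPKM), EDN1, the gene of endothelin 1 (22.7 and 10.2 RPKM), EGR1, a zinc finger transcription factor gene (6.84 and 3.12 RPKM), and LFNG, which encodes a glycosyltransferase that modifies Notch (18.2 and 8.73 RPKM). Replicate 1 held more than 2 times the level of replicate 2 in each. With a pseudocount of 1, the log2 gaps of EGR1, CSF2 and LFNG were −0.93, −0.96 and −0.98 and no longer past 2-fold. ATF3 and EGR1 belong to the immediate early list, which contributes 32 of the 12550 genes kept, again a wider pool than that of the 15.

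The 15 genes of largest gap in the other direction had smaller differences. GLI2, a transcription factor gene of the Hedgehog pathway, stood at 1.248 and 3.45 RPKM (2.76-fold higher in replicate 2), SOCS1, an inhibitor of cytokine signalling, at 3.77 and 7.61 RPKM (2.02-fold, with a log2 gap of 0.995 that fell short of the call) and OSGIN1, an oxidative stress-induced gene, at 8.76 and 17.1 RPKM (1.96-fold). The next were METTL12 (now CSKMT), a mitochondrial methyltransferase gene (1.40 and 2.70 RPKM), and SCO2, which is needed to assemble cytochrome c oxidase (3.38 and 5.76 RPKM). Related kinases of splicing factors, CLK4 (3.60 and 5.87 RPKM) and CLK1 (8.68 and 13.7 RPKM), moved in the same direction. The other 8, the integrin gene ITGB8, PTCD1, LPXN, GCLM, TMEM147-AS1, FAM45A (now DENND10), ZBTB14 and NAGS, were 1.47-fold to 1.59-fold higher in replicate 2. GLI2 alone was past 2-fold on the log2(RPKM + 0.1) scale, and with a pseudocount of 1 its gap was 0.985. TMEM147-AS1 is antisense to its partner gene, and strand was not stated for the counting, so its reads may include those of that partner.

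**Figure D4:**
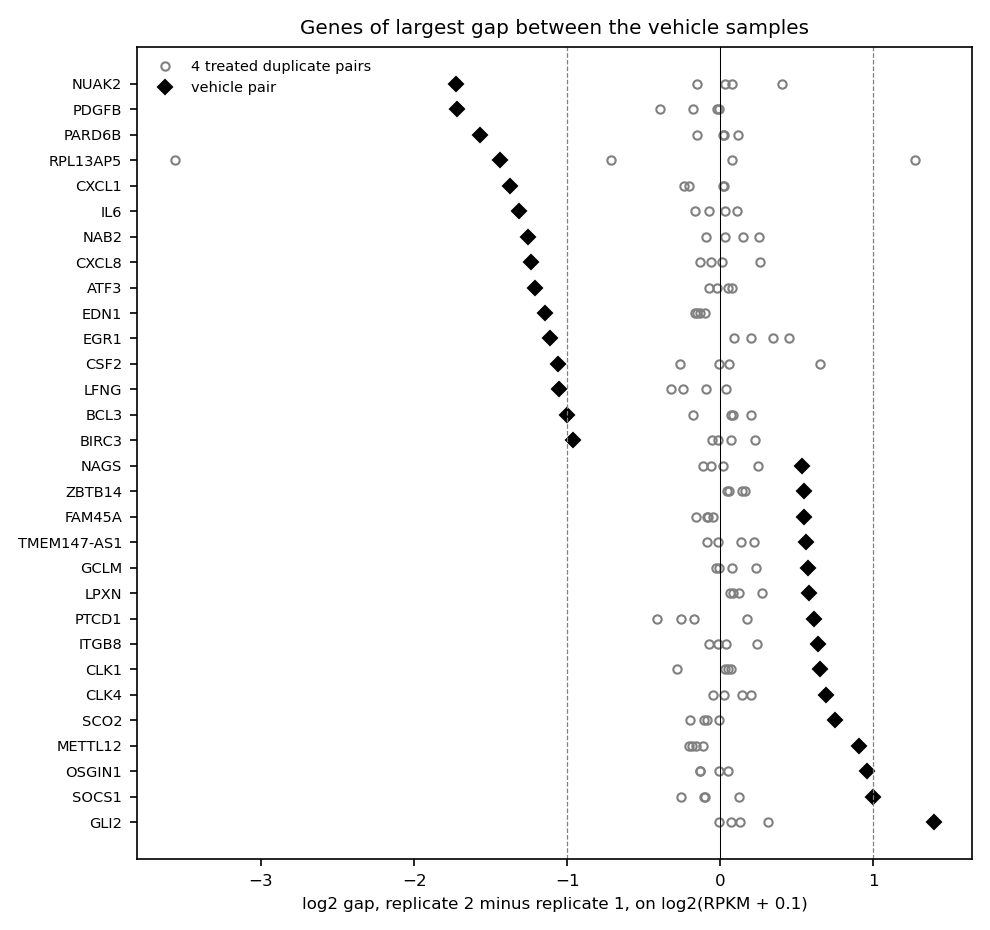
The log2 gap between duplicates, replicate 2 minus replicate 1 on log2(RPKM + 0.1), for the 15 genes of largest vehicle gap in each direction (black diamonds), with the same gap in each of the 4 treated duplicate pairs (open circles) and dashed lines at 2-fold. The genes were chosen by the vehicle gap, and the diamonds on the left reach farther from 0 than those on the right.

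Immediate early genes, which cells transcribe within minutes of a stimulus without new protein synthesis, showed the largest median gap of the lists. Of 34 listed genes 29 were expressed and none was barely read. Of the 32 that were kept, 28 were higher in replicate 1. These 28 also had a gap wider than in each treated pair (87.5%, against 13.5% of all genes kept). The lists here and below were chosen with earlier results of these data known, so such shares are a description. The median gap was −0.50, against −0.02 to 0.04 in the treated pairs and −0.002 over all genes in the vehicle pair. The list summed to 2985 and 1981 RPKM. CYR61 and CTGF (now CCN2), secreted matrix proteins and well-known targets of the YAP coactivator, made up most of that difference, with CTGF at 466 and 244 RPKM. Of the EGR family, EGR3 stood at 1.05 and 0.0983 RPKM and EGR4 at 0.97 and 0.154 RPKM, each past 2-fold and higher in replicate 1. BTG2, an antiproliferative gene, was past 2-fold too at 0.835 and 0.319 RPKM. EGR3, EGR4 and BTG2 were so low, at least in replicate 2, that a few reads decide the value. KLF2 (7.06 and 9.16 RPKM), a zinc finger factor gene, and ZFP36 (6.19 and 8.48 RPKM), which encodes an RNA-binding protein that destabilizes cytokine messages, went the other way by more than in any treated pair. Both were chosen for mention after their values were seen.

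In the NF-kB list, 28 of 41 listed genes were expressed, 26 of the 31 kept were higher in replicate 1, and 22 were so by more than in each treated pair (71.0%). The median gap was −0.34, against −0.02 to 0.06 in the treated pairs. IL1A (0.786 and 0.342 RPKM) and IL1B (1.06 and 0.437 RPKM), the interleukin 1 genes, completed the 6 members past 2-fold on the log2(RPKM + 0.1) scale together with IL6, CXCL8, CXCL1 and CSF2. IER3, which is also in the immediate early list, stood at 116 and 62.9 RPKM. RELB, an NF-kB subunit gene, had the highest gap of the list at 0.15. It was the 1 member higher in replicate 2 by more than in each treated pair. The subunit genes NFKB2 and NFKB1 had gaps of 0.12 and 0.08, with replicate 2 the higher. RELB, NFKB2 and NFKB1 were chosen for mention after their values were seen. The protease gene PLAU, the highest of the list, stood at 281 and 241 RPKM. TNF (0.0209 and 0.0059 RPKM) was barely read, and CXCL5 and BCL2A1 were listed at 0 in both samples.

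Other lists moved less. Cholesterol synthesis genes had a median gap of −0.13, 21 of 24 were higher in replicate 1 and 16 were so by more than in each treated pair (66.7%). All 25 hypoxia and glycolysis genes were higher in replicate 1, with a median of −0.13 and 11 wider than in each treated pair (44%). The medians of this list in the 4 treated pairs were negative too, from −0.09 to −0.02. Among glucocorticoid-responsive genes 6 of 12 were higher in replicate 1 by more than in each treated pair and 2 were so in replicate 2, with a median of −0.19. No gene of these 3 lists passed 2-fold. Mesenchymal genes had a median gap of −0.0003, S phase and mitosis genes −0.02 and tumour suppressors −0.03. In these last lists, 14.8%, 20% and 19.0% of the genes kept were higher in replicate 1 by more than in each treated pair. That share was 34.8% in growth factor ligands and 30.4% in nuclear receptors. It was 33.3% in receptor tyrosine kinases, interferon-stimulated genes and luminal genes. Epithelial genes (5%), basal genes (7.14%) and cytokine and TGF-beta receptors (8.33%) lay below the 13.5% of all genes kept.

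Stress response genes moved in both directions. Their median gap was −0.04, with 6 of 27 genes wider than each treated pair and higher in replicate 1 (22.2%) and 7 higher in replicate 2 (25.9%, against 13.1% of all genes kept). Genes of the antioxidant response were among the latter: TXNRD1, the gene of thioredoxin reductase, stood at 255 and 328 RPKM, GCLM, a subunit of the enzyme that starts glutathione synthesis, at 13.7 and 20.4 RPKM, and SRXN1, the gene of sulfiredoxin, at 57.5 and 82.6 RPKM. Replicate 2 was higher in each, and SRXN1 was chosen for mention after its values were seen. The depth of the replicates differed by a factor of 1.013, and the summed levels of hematopoietic and endothelial markers by under 1 RPKM. Whether depth or other cells bear on the gaps was not tested. Time under vehicle, the culture and the library cannot be told apart as sources of the gaps between these samples.

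**Figure D5:**
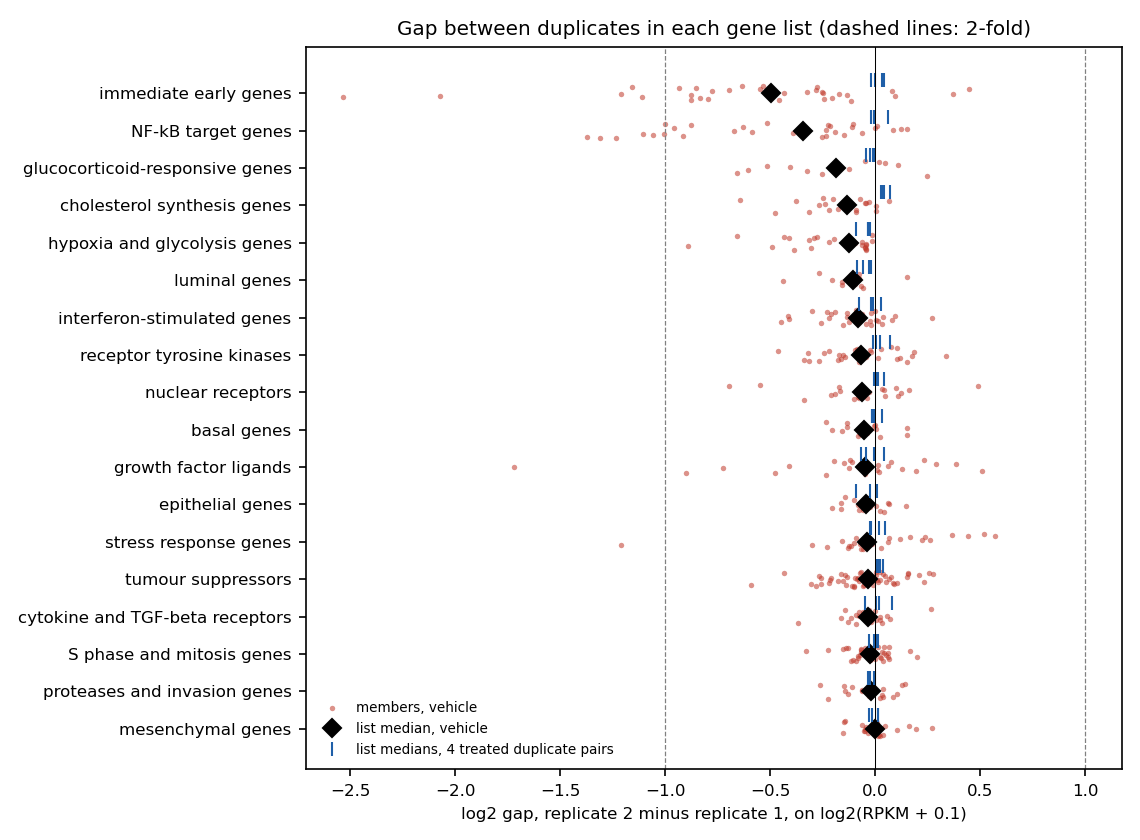
The log2 gap between the vehicle replicates for the members of each gene list with at least 10 genes kept (red points), the list median (black diamonds) and the list median in each of the 4 treated duplicate pairs (blue ticks), with dashed lines at 2-fold. The medians of the immediate early genes (−0.50) and the NF-kB list (−0.34) lie left of their ticks, while that of the mesenchymal genes lies at 0.

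Promoters of genes with a large gap were searched for motifs on both strands, in the RefSeq windows described above. The motifs were GGNNTTTCC (a form of the NF-kB site), TGANTCA (the AP-1 site), GGAATG (the TEAD site), CACCTG (an E-box) and the CArG box of serum response factor. None of the 5 is contained in another, although matches can overlap. Of the 12 genes higher in replicate 1 that had a promoter in the table, 6 held GGNNTTTCC in at least 1 promoter: BCL3, BIRC3, CXCL1, CXCL8, IL6 and LFNG. All of these but LFNG are in the NF-kB list, so the motif and the list membership are not separate observations. This motif was present in 6.26% of all 35116 promoters and in 8.69% of the listed genes when any promoter of a gene was counted. Of the 14 genes higher in replicate 2 that had a promoter, 1 held it. TGANTCA was held by 1 of 12 and 4 of 14 genes, against 7.81% of listed genes and 7.71% of all promoters. GGAATG was held by 2 of 12 and 0 of 14 (15.6% and 14.0%), CACCTG by 3 of 12 and 2 of 14 (24.7% and 20.6%) and the CArG box by 1 of 12 and 0 of 14 (1.61% and 1.29%). These genes were chosen by their values among genes with a mean of 2 RPKM or more, whereas the background shares cover genes of all levels. A match is a description of the sequence, not evidence of binding.

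The promoters of 4 genes that were higher in replicate 1 are shown from 5′ to 3′ with the motif in capitals, as examples of the NF-kB, CArG and TEAD forms. CTGF is outside the 15 largest gaps and was taken for its level. The windows are chr7:22726950-22727249 (IL6, plus strand), chr4:73740319-73740618 (CXCL8, plus strand), chr5:138465229-138465528 (EGR1, plus strand) and chr6:131951323-131951622 (CTGF, minus strand) of GRCh38.p14. IL6 and CXCL8 hold GGNNTTTCC at −72 and −91 from the gene start, EGR1 holds CArG boxes at −105 and −83, and CTGF holds GGAATG at −169, −104 and −95.
IL6: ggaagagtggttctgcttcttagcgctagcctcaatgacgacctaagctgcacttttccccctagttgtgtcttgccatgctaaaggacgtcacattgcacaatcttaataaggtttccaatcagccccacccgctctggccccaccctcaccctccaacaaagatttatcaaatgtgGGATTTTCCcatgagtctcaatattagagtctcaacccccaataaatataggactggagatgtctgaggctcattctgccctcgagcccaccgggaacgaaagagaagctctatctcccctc
CXCL8: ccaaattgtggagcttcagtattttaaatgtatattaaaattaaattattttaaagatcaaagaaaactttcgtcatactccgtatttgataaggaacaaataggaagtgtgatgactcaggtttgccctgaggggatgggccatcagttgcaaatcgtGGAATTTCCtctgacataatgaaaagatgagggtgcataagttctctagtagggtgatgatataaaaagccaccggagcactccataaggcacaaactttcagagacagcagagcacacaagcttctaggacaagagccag
EGR1: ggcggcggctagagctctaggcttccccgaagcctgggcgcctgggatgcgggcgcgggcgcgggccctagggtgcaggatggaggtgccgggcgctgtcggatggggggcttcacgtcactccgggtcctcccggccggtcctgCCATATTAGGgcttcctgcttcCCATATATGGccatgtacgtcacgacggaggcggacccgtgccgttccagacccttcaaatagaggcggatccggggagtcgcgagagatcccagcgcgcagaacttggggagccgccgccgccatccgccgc
CTGF: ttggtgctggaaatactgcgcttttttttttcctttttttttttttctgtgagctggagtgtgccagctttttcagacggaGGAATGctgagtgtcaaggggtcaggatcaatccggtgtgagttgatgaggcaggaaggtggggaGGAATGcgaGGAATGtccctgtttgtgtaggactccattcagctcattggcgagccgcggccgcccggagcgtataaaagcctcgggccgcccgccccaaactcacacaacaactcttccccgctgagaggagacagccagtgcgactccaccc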

How the data were processed

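RNA was sequenced in duplicate from MDA-MB-231 cells. Per the study's methods and the submitters' processing notes, the authors aligned 50-base single-end reads with TopHat2 2.0.13, estimated abundances in Partek 6.6 and deposited RPKM values, already scaled by transcript length and mapped reads, for 20668 gene symbols per sample. How transcripts were combined into symbols and how strand was used in the counting are not given in the sources used here, and symbols not in this list were not analysed here. Samples were grouped by their labels, and nothing beyond the label of biological duplicates says how independent the cultures were.

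Gaps were computed as log2(RPKM + 0.1) of replicate 2 minus replicate 1 for genes with 0.5 RPKM or more in at least 1 vehicle sample, with no further scaling. RPKM of low genes moves in steps of 1 read, so gaps of low genes are noisy and the pseudocount shrinks them. A gap past 2-fold was counted, with no p-value, since each side is 1 library. Errors are SD over n = 2. The calculation was tested on simulated data, in which all of 100 genes made 4 times higher and 100 made 4 times lower in replicate 2 were recovered among 12420. The changed genes had a mean of 2 RPKM or more, and the simulated noise was the same at all levels. The simulation therefore checks the arithmetic and cannot show how reliably 2-fold gaps, or gaps of low genes, are called.

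The samples and gene lists were chosen with earlier results of these data known. The text names the marker genes, the 20 most abundant genes, up to 4 expressed and 4 barely read genes of highest or lowest mean per list, nuclear receptors and receptor tyrosine kinases with a mean of 10 RPKM or more, barely read tumour suppressors, list members past 2-fold, and the 15 largest gaps in each direction among genes with a mean of 2 RPKM or more, short RNA symbols left out. Some genes that this rule names are not reported here. Other genes are said to have been chosen after their values were seen. Alternatives were other thresholds, pseudocounts of 1 and 0.01, other filters and folds, centring, quantile normalization, and each replicate alone. Coordinates and biotypes came from GENCODE and RefSeq, and CDH1 was not in the promoter table. Python 3.11.15, numpy 2.4.6, pandas 2.3.3 and matplotlib 3.10.9 were used.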

Additional observations from a re-analysis of the deposited data

How the results depend on the processing

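The counts of genes past 2-fold depended on the treatment of low values. For genes higher in replicate 1 and in replicate 2 (58 and 54 as reported), a pseudocount of 1 gave 13 and 8, no filter 154 and 157, a filter of 1 RPKM or more in both samples 15 and 3, a 1.5-fold threshold 176 and 132, and leaving out short RNA symbols 25 and 13. Centring on the median gap and quantile normalization left these counts within 1 of those reported, and a pseudocount of 0.01 gave 66 and 63. With a pseudocount of 1, 13 of the 30 named gaps moved by more than the SD of their gaps over the 4 treated pairs, for NUAK2 from −1.72 to −1.20 and for GLI2 from 1.40 to 0.985. Quantile normalization changed the sign of none of the 30. The number of expressed genes (11297 as reported) was 11413 and 11437 with each replicate alone, 12194 at 0.5 RPKM, 10116 at 2 RPKM and 12834 on a TPM scale. The number of genes under 0.1 RPKM (5887) was 6228 and 6203 with each replicate alone and 4451 on a TPM scale. With genes still ranked by the mean of both samples, the 10 most abundant held 6.41% in replicate 1 and 6.28% in replicate 2. The 100 most abundant held 20.2% and 19.9%. The count at a mean of 2 RPKM or more without short RNA symbols (13 and 1) was added after seeing the data. It was 10 and 0 with a pseudocount of 1, which ends the call of GLI2, 14 and 2 with 0.01, 13 and 2 with quantile normalization, and 69 and 9 at 1.5-fold. Read totals limit what can be said of genes near 0. No paired analysis was possible because the vehicle samples form 1 group and no result comes from a test.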
